A study of Mus musculus with 82 samples.

Results

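The genes of the Mediator complex were followed across single-cell and bulk nascent RNA maps of mouse embryonic stem cells. Members were taken by name: every curated RefSeq protein-coding gene of the GRCm38 assembly whose symbol is Med with a number, with or without a final l, together with Cdk8, Cdk19 and Ccnc. The rule gave 33 genes of 24752 in the annotation and used no measured value. Mediator is a large assembly that bridges transcription factors bound at enhancers and promoters to RNA polymerase II. Its head module contacts the polymerase, its middle module and the Med14 backbone hold the complex together, its tail receives activators, and a detachable kinase module of Cdk8 or its paralogue Cdk19, cyclin C (Ccnc), Med12 or Med12l and Med13 or Med13l limits polymerase binding and phosphorylates factors. Here 11 members were placed in the head, 10 in the middle and backbone, 5 in the tail and 7 in the kinase module. The placement was a fixed list that was not checked against a structure.

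All samples were untreated V6.5 cells, a stem cell line derived from a cross of C57BL/6 and 129/sv mice and grown on gelatin in serum with LIF, so the comparisons are between assays and preparation batches and not between genotypes or treatments. Each assay let engaged polymerases add a clickable nucleotide to their RNA and counted the RNA by unique molecular identifiers (UMIs). AGTuC is the bulk form with a strong detergent in the run-on, inAGTuC keeps nuclei intact with little detergent in plate wells, and scGRO-seq does the same with 1 nucleus a well. The values below rest on 2 AGTuC libraries of 2243292 and 4767439 reads, 4 inAGTuC libraries of 787132 to 1912347 reads, and 2512 scGRO-seq cells from 35 libraries in 10 batches of 92 to 812 cells. No label says that libraries of 1 assay came from separate cultures, so p-values measure the spread between these libraries, which may be technical. Both AGTuC libraries came from 1 experiment that holds no other assay, so assay and experiment cannot be told apart in any comparison with AGTuC. The cells had a median of 3435.5 UMIs each (1177 to 51431). Of 2512 kept cells 2484 carried a barcode sequence that another library also used, 254 distinct sequences in all, so cells were told apart by library and barcode together. Molecules present in more than 1 library were left out, at shares that differed widely. They were 0.245% and 0.511% of the AGTuC libraries and 4.67% to 23.5% of an inAGTuC library. In the scGRO-seq libraries of the batches used they were 0.320% to 67.6%, with 32.6% to 47.4% in Exp236. With all deposited reads counted, 3041 cells were kept. Bulk libraries cannot tell fewer transcribing cells from less RNA per cell.

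The stem cell label fitted the markers: all 8 marker genes of embryonic stem cells had UMIs in AGTuC and 7 of 8 in the other assays, where Dppa5a was at 0. Their summed level was 193 to 206 in AGTuC, 63.5 to 74.7 in inAGTuC and 39.4 to 123 in scGRO-seq, in sense UMIs per kb of gene body per 1000000 gene-body UMIs, the scale used for every level below. Of 5 fibroblast markers 1 had UMIs in AGTuC (summed level 0.184 to 0.192, with Col1a2, Col3a1, Lum and Dcn at 0) and 5 had UMIs in inAGTuC (0.175 to 1.79) and scGRO-seq (0.870 to 6.01). The 5 primitive endoderm markers summed to 1.88 to 2.55 in AGTuC, 1.75 to 5.78 in inAGTuC and 0.534 to 5.67 in scGRO-seq. Olfactory receptor genes, which stem cells do not use, had a pooled level of 0.0018 in AGTuC, 0.108 in inAGTuC and 0.112 in scGRO-seq. The reads of intact nuclei were also less strand-specific, with 67.4% (inAGTuC) and 69.1% (scGRO-seq) of the reads on gene spans in the sense direction against 83.3% in AGTuC. On the bodies of the members the pooled antisense level was 0.135 in AGTuC, 1.05 in inAGTuC and 0.767 in scGRO-seq, beside sense levels of 1.99 ± 0.09 (SD, n = 2), 2.59 ± 0.60 (n = 4) and 2.81 ± 0.80 (n = 10 batches). The part that this difference in background plays in the comparisons of assays was not tested.

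The members' spans ran from 1815 bp (Med11) to 311439 bp (Med12l), with a median of 17987 bp against 14971.5 bp for all genes. Of 33 members 8 (24.2%) had a curated start of another gene on the opposite strand near their own start, as did 13.1% of all genes: Med9, Med31, Med20, Med22, Med19, Med8, Med29 and Med14. Med20 shared its strand with an overlapping gene, Gm20517, so its reads could not be assigned to 1 gene with certainty. An annotated antisense gene overlapped 7 members, among them Med12l, Med13, Ccnc and Med21. At 28 members, 32 promoters of 300 bp were found in the RefSeq promoter table; Cdk19, Med23, Med24, Med30 and Med8 were not in it. These promoters had a median GC content of 57.8% against 52.7% for 32851 promoters of all genes and held a median of 20 CG dinucleotides against 7. A GC box (GGGCGG on either strand) was in 20 of 32 (62.5%) against 35.7% of all promoters, and an ETS-type core (CCGGAAG, either strand) in 9 (28.1%) against 8.86%. A CCAAT box was in 12 (37.5%) against 37.4%, and a TATA box (TATAAA) in 3 (9.38%; Med16, Med28 and Med7) against 13.6%.

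The 5 members with the most UMIs in the first 500 bp of their span in AGTuC were Med28 (205 UMIs), Med26 (164), Med25 (163), Med15 (120) and Med22 (108). Their start regions are printed from 80 bases before to 20 bases after the annotated start, in the direction of transcription, from RefSeq on GRCm38.p6, with matches on either strand to the searched motifs in capitals. The motifs were the GC box, the CCAAT box, the TATA box and the ETS-type core given above, the NRF1 palindrome (in 0 member promoters against 0.971% of all), the YY1 site AAGATGGC (in 1, Med31, against 2.75%) and the CRE, read as TGACGTCA (in 1, Med21, against 1.79%). They lie at chr5:45520149-45520248 on the plus strand (Med28), and on the minus strand at chr8:72548291-72548390 (Med26), chr7:44892405-44892504 (Med25), chr16:17722928-17723027 (Med15) and chr2:26910623-26910722 (Med22).
Med28: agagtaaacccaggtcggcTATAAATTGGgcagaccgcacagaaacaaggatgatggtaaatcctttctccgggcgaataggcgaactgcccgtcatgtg
Med26: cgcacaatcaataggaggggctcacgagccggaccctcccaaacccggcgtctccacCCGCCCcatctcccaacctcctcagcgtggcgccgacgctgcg
Med25: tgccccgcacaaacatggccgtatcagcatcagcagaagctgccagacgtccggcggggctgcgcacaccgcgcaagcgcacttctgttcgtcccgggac
Med15: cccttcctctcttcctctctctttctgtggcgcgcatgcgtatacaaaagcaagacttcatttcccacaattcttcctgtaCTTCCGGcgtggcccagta
Med22: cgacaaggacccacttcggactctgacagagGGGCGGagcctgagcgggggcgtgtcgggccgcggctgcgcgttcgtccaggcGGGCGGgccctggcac
The Med28 stretch held a TATAAA directly followed by a CCAAT box in reverse, which overlap by 1 base; Med26 and Med22 held GC boxes, Med15 an ETS-type core and Med25 none of the motifs. A match is a description of the letters and not of a bound factor.

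The first question was where polymerases lay along these genes, since polymerase paused near a start site is known to run on poorly without detergent. In AGTuC 1977 sense UMIs fell in the first 500 bp of the members' spans, at a median of 112 bp from the start (quartiles 70 and 167 bp), and 834 of them (42.2%) lay within 100 bp. In the Med28 promoter printed above the median distance was 141 bp, in Med26 133 bp, in Med15 113 bp, in Med22 85 bp and in Med25 82 bp. Upstream, 837 antisense UMIs lay within 500 bp of the members' starts; at the 8 members with a start of another gene nearby on the opposite strand these include reads of that gene. In intact nuclei the same windows held 161 sense UMIs at a median of 188 bp (inAGTuC) and 264 at 197 bp (scGRO-seq), with 64 and 96 upstream antisense UMIs.

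**Figure D1:**
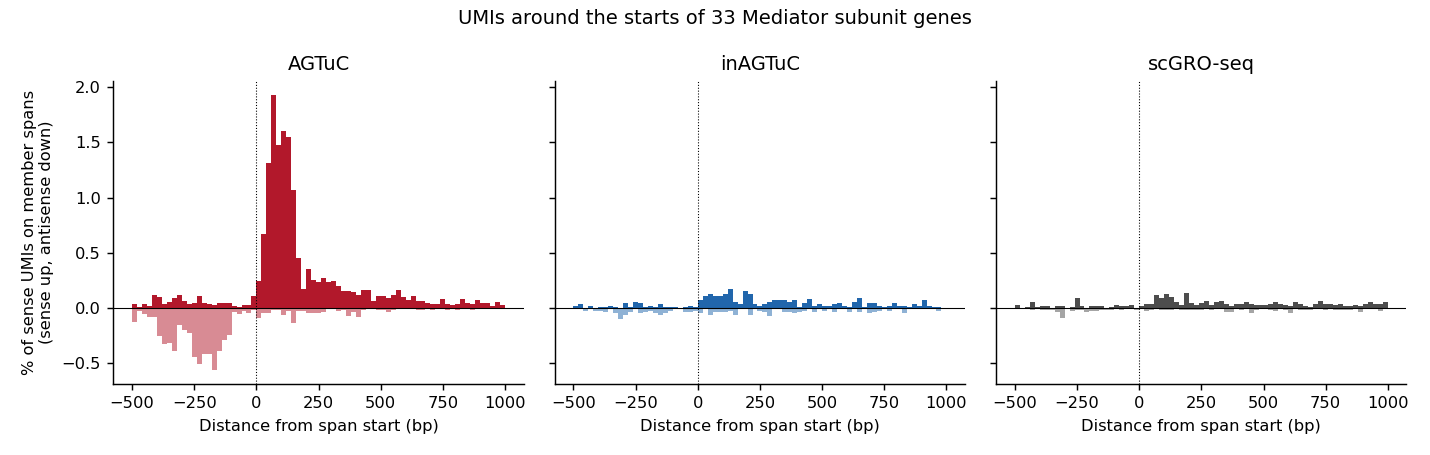
Sense UMIs (upward) and antisense UMIs (downward) by distance in bp from the span starts of 33 Mediator subunit genes, as a percentage of the sense UMIs on their spans, in 1 panel for each assay with libraries summed. The AGTuC panel has a sense peak just inside the starts, where the median distance was 112 bp, and an antisense peak upstream; the inAGTuC and scGRO-seq panels have no peak of that height.

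The share of UMIs in the first 500 bp, out of those and the gene body (from 500 bp after the start to 500 bp before the end), was several times larger in AGTuC than in intact nuclei. Summed over the members it was 13.54% and 13.57% in the AGTuC libraries. The 4 inAGTuC libraries gave 1.92%, 1.77%, 4.20% and 1.15% (mean 2.26% ± 1.34 SD), and the 10 scGRO-seq batches gave 0.680% to 3.37% (1.52% ± 0.80). No inAGTuC library or scGRO-seq batch came near either AGTuC library, and the means of AGTuC and inAGTuC were 11.3 percentage points apart. The mean share of the members was below that of all genes in each assay, although 1 batch, Exp211, had 3.37% on members and 2.92% on all genes: all genes summed to 20.7% ± 1.21 in AGTuC, 3.70% ± 1.13 in inAGTuC and 2.90% ± 0.65 in scGRO-seq.

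The kinase module had the lowest mean share in each assay, with no test run between modules. The share sets 500 bp against the whole body, so it also depends on gene length. As a density per bp in AGTuC, the promoter over the body was 1.74 (Cdk8) to 28.1 (Cdk19) in the kinase module. In the head it was 1.39 (Med29) to 37.0 (Med30), so the modules overlapped on that measure. In AGTuC the head module had 31.8% ± 0.27 of its UMIs in the promoter window, the tail 22.02% ± 2.09, the middle and backbone 21.2% ± 0.33 and the kinase module 3.30% ± 0.24 (n = 2 each). In inAGTuC the 4 modules had 5.45% ± 1.29, 2.82% ± 1.51, 7.74% ± 4.84 and 0.801% ± 0.62 in that order (n = 4), and in scGRO-seq 4.64% ± 2.39, 3.72% ± 1.83, 3.08% ± 2.45 and 0.644% ± 0.56 (n = 10). The kinase module holds the long genes Med12l and Med13l and also Cdk8, whose body holds an unusual stretch described below; without Cdk8 the member sums were 15.8%, 3.23% and 2.41%.

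A fit of the promoter-to-body ratio in AGTuC against inAGTuC (limma voom with each library as a block, 12147 genes, Benjamini-Hochberg adjustment) called 12 of 28 tested members, 11 of them with a higher ratio in AGTuC. Of all genes tested 52.7% were called, 50.4% higher and 2.26% lower; the difference between the members' share and this background was not tested. The members' median difference was 1.80 on the log2 scale against 2.25 for all genes. Of the 12 called members 2, Med7 and Med22, met the read minimum of the filter only with the help of the AGTuC libraries, where they had more reads, so their calls are a description. The remaining 5 members, Med11, Med31, Med19, Med8 and Med18, had too few reads to be tested. Med11 had 42 promoter and 15 body UMIs in AGTuC (73.7%) and 3 and 2 in inAGTuC. With at least 15 promoter reads required, 11 of 25 members were called, all higher, against 56.4% of 9269 genes (56.3% higher, 0.162% lower). These reads were summed over both assays, and the members had 1977 promoter UMIs in AGTuC and 161 in inAGTuC. The requirement was thus met mainly through AGTuC, so it favoured the higher direction and these calls are a description. Leaving out either AGTuC library leaves that assay 1 library, assumed to vary like the inAGTuC libraries. No member was then called (7 and 4 at an unadjusted p under 0.05), with log2 differences of 1.96 to 3.84 for the 11 higher members. Without the inAGTuC library Exp208_c14 5 members were called, and without both Exp208 libraries 4. With promoters and bodies each scaled to their own size factor, which removes the shift shared by all genes, only Med10 and Med29 were called, both lower. That scaling also called far fewer of all genes than the main fit. The member counts of these settings were not compared with the share of all genes called in them.

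Among the head genes, Med28 had 79 promoter and 39 body UMIs in 1 AGTuC library and 126 and 86 in the other, against 2 and 3, 0 and 11, 2 and 6, and 0 and 17 in the inAGTuC libraries. Its promoter share was 66.9% and 59.4% in AGTuC and 9.76% over the 4 inAGTuC libraries together (Wilson 95% interval 3.86 to 22.6%, covering counting error only, as do all such intervals here), a log2 difference of 3.65 (SE 1.10, adjusted p = 0.00856). The highest share in an inAGTuC library rested on 2 of 5 UMIs. Under 13 alternative settings other than leaving 1 library out, the call of Med28 was kept in 10 and that of Med22 in 12. Med22 had 28 promoter and 13 body UMIs, and 80 and 33, in the AGTuC libraries, which are shares of 68.3% and 70.8%. In inAGTuC its 20 UMIs held 3 in the promoter (15.0%), and in scGRO-seq 13 of 59 (22.03%), a log2 difference between the bulk assays of 3.10 (SE 0.88, adjusted p = 0.00597, or 3.10 and 0.0170 with no filter on low counts). Med30 (52.1% in AGTuC, 9.38% in inAGTuC, 1.06% in scGRO-seq) and Med6 (20.2%, 1.85% and 2.91%) were the other head members called, with log2 differences of 2.58 and 2.41.

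The tail genes followed with Med15, a target of activators, at 28.1% and 23.1% in the AGTuC libraries. Its inAGTuC libraries had 2.6%, 2.0%, 2.1% and 2.2%, from 1 or 2 promoter UMIs each, and 226 body UMIs together. The difference was 3.45 (SE 0.91, adjusted p = 0.00355), and all 4 intact-nuclei libraries lay far below both AGTuC libraries. Med16 had 42.6% in AGTuC, 5.41% in inAGTuC and 4.82% in scGRO-seq (log2 difference 2.92, adjusted p = 0.0176), and Med25, a docking site for activators, had 36.2%, 7.59% and 10.8% (2.39, adjusted p = 0.0305). The calls of Med16 and Med25 were each kept in 10 of 13 alternative settings other than leaving 1 library out. Med23 and Med24 missed the threshold, with log2 differences of 0.20 and 1.91 and adjusted p of 0.859 and 0.0791.

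In the middle and backbone, Med14 had 24.1% in both AGTuC libraries, from 21 of 87 and 47 of 195 UMIs. The inAGTuC libraries had 7.7%, 3.8%, 3.8% and 0 of 125 UMIs, a log2 difference of 3.29 (SE 1.06, adjusted p = 0.0124). The Med14 call was kept in 10 of 13 alternative settings other than leaving 1 library out. Med14 is 1 of 2 members on chromosome X with Med12, a kinase module gene whose shares of 12.2% in AGTuC, 7.00% in inAGTuC and 11.1% in scGRO-seq were close (0.49, adjusted p = 0.644). Med7, which joins the middle module to the rest, had 60.5% and 60.9% in the AGTuC libraries. Its inAGTuC libraries had 1 promoter and 1 body UMI (50.0%), 0 and 6, 3 and 4 (42.9%), and 0 and 16, so that 2 of them lay near the AGTuC values on few UMIs, with 12.9% in all (2.90, adjusted p = 0.0305, or 2.86 and 0.163 with no filter on low counts).

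Of the kinase module, Cdk19 had 9.53% in AGTuC against 1.20% in inAGTuC (2.80, adjusted p = 0.0220) and Ccnc 30.96% against 4.26% (2.64, adjusted p = 0.0242). Each of these calls was kept in 10 of 13 alternative settings other than leaving 1 library out. Cdk8 (1.22% against 0.422%; 1.67, adjusted p = 0.152), Med13 (4.17% against 0.637%; 1.94, adjusted p = 0.0940), Med13l (0.62, adjusted p = 0.581) and Med12l (1.00, adjusted p = 0.357) missed the threshold. The long Med13l had 27 promoter UMIs beside 3467 in its body in AGTuC, and Med12l 3 beside 162. In the 500 bp upstream of the annotated start Med13l had 77 sense UMIs, Med12l 12 and Med13 22. Whether the promoter windows of these genes hold the starts in use was not tested.

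Med10, a middle subunit, was called in the other direction (log2 difference -3.00, adjusted p = 0.00925), but it had no promoter UMI in any of the 6 libraries, so the fitted value reflects 0 counts at different depths and is no measurement. The annotation gives this gene 2 curated starts, and the outer one, which opens the span, had 0 AGTuC UMIs in its first 500 bp (0 of 127 promoter and body UMIs, Wilson 95% interval 0 to 2.94%). The inner start, 7512 bp further in, had 81 AGTuC UMIs and 2 in inAGTuC. With promoters taken at any curated start the Med10 difference was 4.17, higher in AGTuC (adjusted p = 0.00104). The same 100 bases are printed for both starts, at chr13:69802290-69802389 and chr13:69809802-69809901 on the plus strand, with capitals as above.
Med10 outer start: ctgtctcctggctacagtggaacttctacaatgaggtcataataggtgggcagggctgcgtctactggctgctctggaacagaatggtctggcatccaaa
Med10 inner start: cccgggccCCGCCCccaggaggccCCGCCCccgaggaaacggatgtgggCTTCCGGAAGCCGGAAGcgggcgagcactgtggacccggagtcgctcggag
The outer stretch held none of the searched motifs, and the inner held GC boxes and overlapping ETS-type cores. Of the other 4 members with more than 1 curated start, Med7 and Med15 have theirs 14 and 47 bp apart, Med1 387 bp apart and Med27 31704 bp apart.

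**Figure D2:**
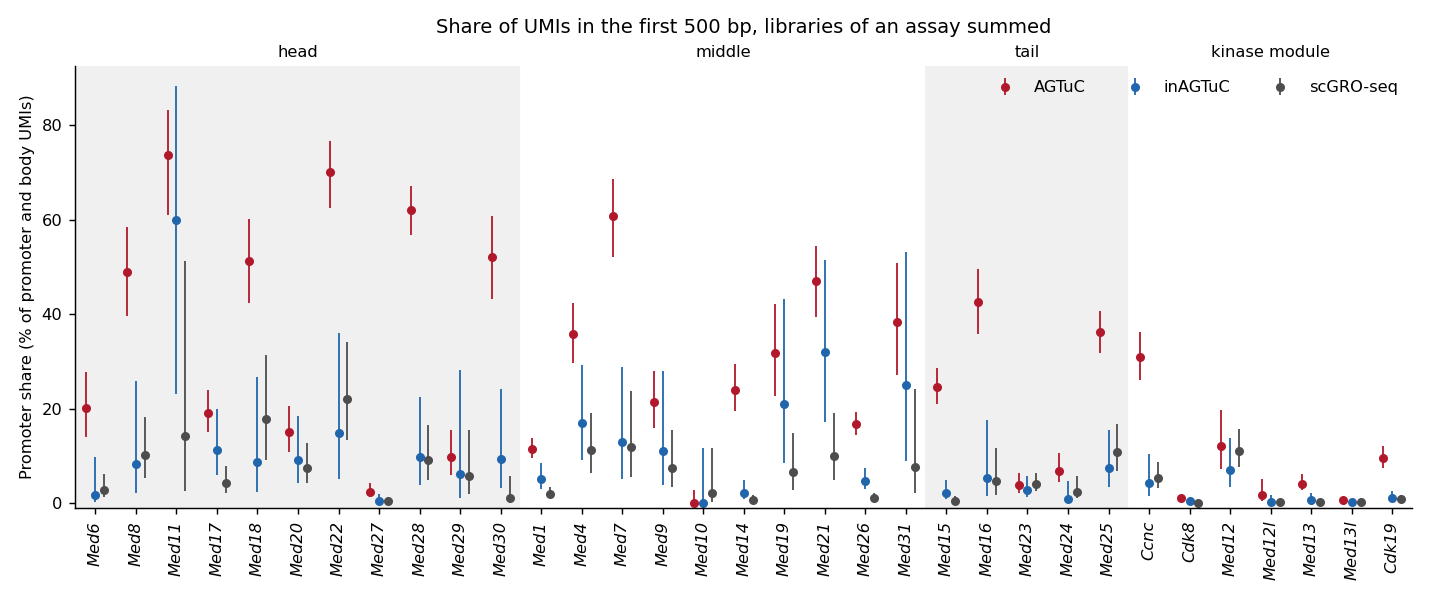
Share of UMIs in the first 500 bp, in % of promoter and body UMIs, for each of 33 Mediator subunit genes by module, with the libraries of an assay summed and 1 symbol for each assay; vertical lines are Wilson 95% intervals. The AGTuC points of Med28 (62.1%), Med22 (70.1%) and Med7 (60.8%) lie far above those of the intact-nuclei assays, and the Med10 points lie at or near 0.

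Between the intact-nuclei assays, scGRO-seq and inAGTuC, 0 of 18 tested members and 0% of 7876 genes had a different promoter-to-body ratio (limma). At an unadjusted p under 0.05 there were 1 member, Med26 (log2 difference -1.63, SE 0.61), and 216 genes. The members' differences ran from -1.63 to 1.35 with a median of 0.11, the same as over all genes (0.11). With standard errors of 0.61 to 0.79, differences of several-fold can go uncalled at this depth.

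The gene body levels came next. In AGTuC the median member had a level of 2.50 against 0.499 over 22381 genes, in inAGTuC 1.74 against 0.740, and in scGRO-seq 1.86 against 0.681. In scGRO-seq the highest mean levels were Cdk8 (25.4 ± 17.3, SD over 10 batches), Med13l (3.70 ± 1.50) and Med8 (3.43 ± 1.44), the last close to Med26 at 3.30 and within its spread. The lowest were Med12l (0.566 ± 0.18), Med10 (0.819 ± 0.43) and Med9 (0.948 ± 0.51), which overlap one another's spread.

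**Figure D3:**
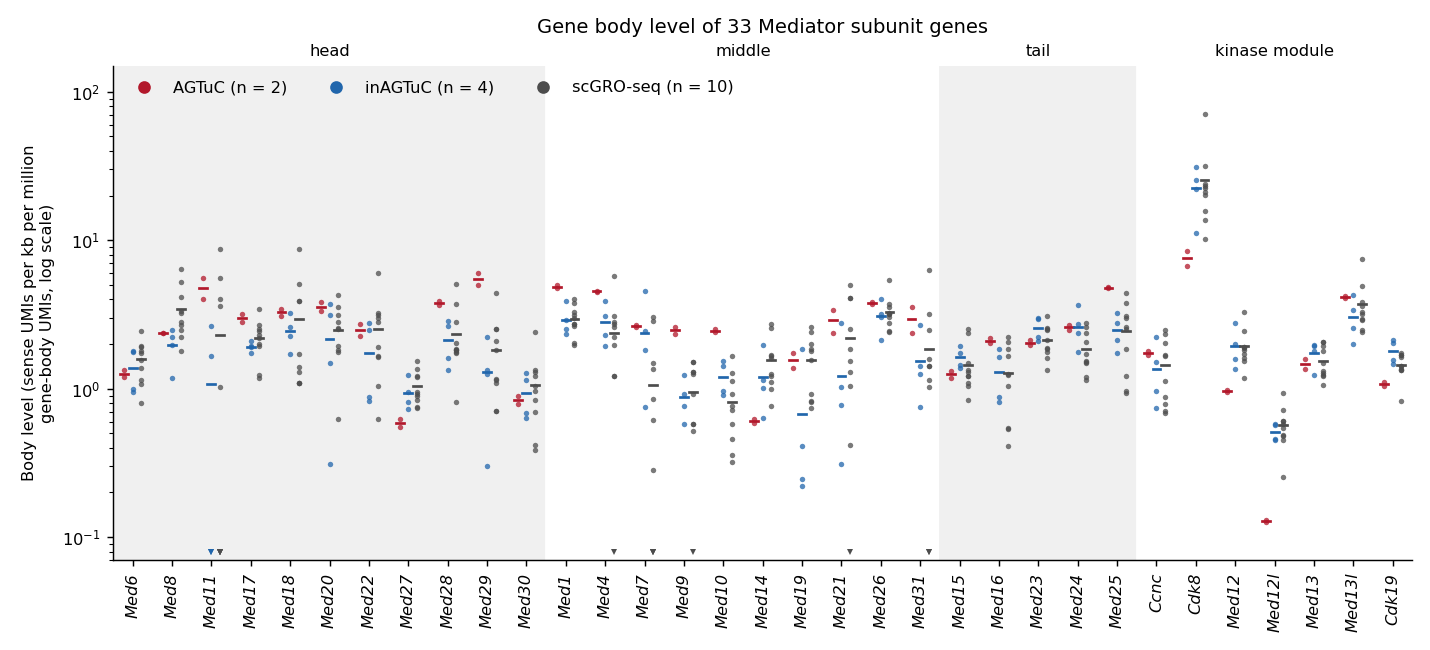
Body level of 33 Mediator subunit genes in sense UMIs per kb per 1000000 gene-body UMIs, on a log scale, with 1 point for each of 2 AGTuC libraries, 4 inAGTuC libraries and 10 scGRO-seq batches, dashes for the means, triangles at the lower edge for samples at 0, and the genes grouped by module. Cdk8 lies above the other members in every assay and Med12l at the bottom, with its AGTuC libraries (0.130 and 0.128) below all intact-nuclei points.

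AGTuC and inAGTuC differed in the body level of 6 of 26 tested members (limma voom, 11471 genes), 3 higher and 3 lower in AGTuC, against a background of 30.1% of genes (12.5% higher, 17.6% lower). The members' median difference was 0.40 on the log2 scale against 0.05 over all genes. The split into higher and lower depends on the scaling. Size factors over all samples used, which scale the levels given here, were 1.20 and 1.22 times the body UMIs in AGTuC and 0.903 to 1.14 times in inAGTuC. The fit took its own size factors over the AGTuC and inAGTuC libraries alone, which are not given here. Of the 3 higher members 2, Med29 and Med9, met the read minimum of the filter only through the AGTuC libraries, so the filter favoured their direction and their calls are a description. All 3 lower members belong to the kinase module, of which 3 of 7 were lower and 0 higher, while the head, middle and tail each had 1 higher member. Those of the head and middle are Med29 and Med9. This split by module was not tested and depends on the placement and the scaling. Of these 3 lower members, Med12l alone was called with the densest 500 bp of each gene body left out. Med12 was also lost with library totals, no filter or a mapping quality of at least 10, and Cdk8 with UMIs within 50 bp counted once. AGTuC has no cell barcodes, so in this comparison the last setting reduced the inAGTuC counts alone. The count fell to 1 (Med12l) without the AGTuC library Exp125c_c01, to 0 without Exp125c_c02 (4 at an unadjusted p under 0.05), again with 1 AGTuC library left and every called member in the same direction (log2 differences of 0.97 to 2.43 for the higher and -1.91 to -0.89 for the lower), and to 2 (Med12l and Med29) without the inAGTuC library Exp208_c12 or without both Exp208 libraries.

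Med29, placed with the head here, had AGTuC levels of 6.02 and 4.96 and inAGTuC levels of 2.25, 0.300, 1.35 and 1.26. The groups did not overlap, and the log2 difference was 2.26 (SE 0.55, adjusted p = 0.0151). Med29 had 15 body UMIs over the 4 inAGTuC libraries, and no inAGTuC library reached the read minimum of the filter, so its call is a description. With no filter on low counts, a setting in which many more genes were called, its difference was 2.22 (adjusted p = 0.00537). Med9, a small middle subunit, had 2.59 and 2.35 in AGTuC and 0.770, 1.24, 0.923 and 0.577 in inAGTuC, again without overlap (1.50, SE 0.41, adjusted p = 0.0231, or 1.49 and 0.0171 with no filter). It had 24 body UMIs over the 4 inAGTuC libraries, of which 1 library reached the read minimum, so its call is a description too. Med25 had 4.77 and 4.83 in AGTuC against 1.73, 2.77, 3.25 and 2.13, a smaller gap (0.96, SE 0.30, adjusted p = 0.0377).

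Med12l, a paralogue of Med12 and the longest member, had levels of 0.130 and 0.128 in AGTuC and of 0.454, 0.455, 0.566 and 0.577 in inAGTuC. The groups did not overlap, and the log2 difference of -1.95 (SE 0.26, adjusted p = 0.00255) was the largest in size among the lower members. Beside it, the antisense share of the Med12l body reads was 6.90% in AGTuC, 39.6% in inAGTuC and 31.8% in scGRO-seq; the part of unstranded background in the Med12l level was not tested. Med12, which is on chromosome X and has the same place in the kinase module, had 0.956 and 0.975 in AGTuC and 1.37, 2.76, 2.00 and 1.59 in inAGTuC (-0.96, SE 0.32, adjusted p = 0.0484). Cdk8 had 6.69 and 8.50 in AGTuC and 25.6, 22.1, 11.2 and 31.3 in inAGTuC (-1.44, SE 0.43, adjusted p = 0.0326). Of the other kinase module genes, Cdk19 (-0.68, adjusted p = 0.108), Med13 (-0.18, adjusted p = 0.685), Med13l (0.56, adjusted p = 0.294) and Ccnc (0.45, adjusted p = 0.425) missed the threshold. Of the X-linked pair, Med14 (-0.86, adjusted p = 0.154) also missed it.

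The Cdk8 value rested on 1 short stretch of an intron. Of all Cdk8 body UMIs in the 3 assays, 85.1% lay in 500 bp at chr5:146260925-146261424, 29675 bp into the gene: 74.7% in AGTuC, 87.2% in inAGTuC and 87.4% in scGRO-seq. Of 9200 genes with enough reads for the measure, 31 had as large a share or larger in their densest 500 bp, and the median was 6.12%. Over all barcodes of every deposited library, kept or not, these 500 bp held 16327 sense reads, the read set for the stretch and blocks that follow. The stretch that held 99% of them was 345 bp long, chr5:146261021-146261365. Its first 300 bases on the plus strand of GRCm38 are printed because the Cdk8 level depends on them. Capitals mark the 10-base blocks that each held at least 5% of the reads in the 300 bases; there were 7 such blocks with 52.4% of the reads.
Cdk8 intron: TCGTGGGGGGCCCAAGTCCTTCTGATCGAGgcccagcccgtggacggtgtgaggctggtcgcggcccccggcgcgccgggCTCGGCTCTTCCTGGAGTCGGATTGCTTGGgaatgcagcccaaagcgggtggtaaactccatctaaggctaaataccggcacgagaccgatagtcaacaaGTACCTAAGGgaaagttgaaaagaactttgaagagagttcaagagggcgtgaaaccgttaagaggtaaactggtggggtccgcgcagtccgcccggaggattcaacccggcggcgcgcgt
Its letters can be read as a part of the large ribosomal RNA, which is background knowledge; no full ribosomal RNA sequence was among the references used, and the likeness was not measured. Of 325 positions within the 345 bp, 119 have the same 20 bases elsewhere on the chromosomes, and the median mapping quality of the reads was 22. Reads on the antisense strand of the 500 bp, counted over all barcodes after shared molecules were left out, were 18 beside 1699 sense reads in AGTuC, 848 beside 2877 in inAGTuC and 2385 beside 11751 in scGRO-seq. The scGRO-seq counts here cover every deposited library. They include batches not used elsewhere and the scGRO-seq list of Exp261_c16, which repeats an inAGTuC list, so some inAGTuC reads are counted again.

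Without these 500 bp the Cdk8 level was 2.08 and 1.99 in AGTuC, 2.58, 3.76, 2.63 and 2.94 in inAGTuC and 1.61 to 3.57 in scGRO-seq, within the range of the other members. With the densest 500 bp of every gene left out the difference between AGTuC and inAGTuC was -0.42 (adjusted p = 0.284), no longer past the threshold, and Med12 was not called either. Pooled over members, the 3 assays then had sense levels of 1.66, 1.66 and 1.72. Med24 and Med23 in the tail had denser stretches in intact nuclei too: the densest 500 bp of Med24 held 1.57% of its body UMIs in AGTuC, 23.7% in inAGTuC and 22.7% in scGRO-seq, and those of Med23 1.43%, 12.3% and 6.02%. The stretch was chosen on the reads of all assays together. Several other members had the larger share in AGTuC, among them Ccnc (10.3%, 1.11% and 0.405%) and Med1 (13.1%, 2.07% and 3.21%).

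**Figure D4:**
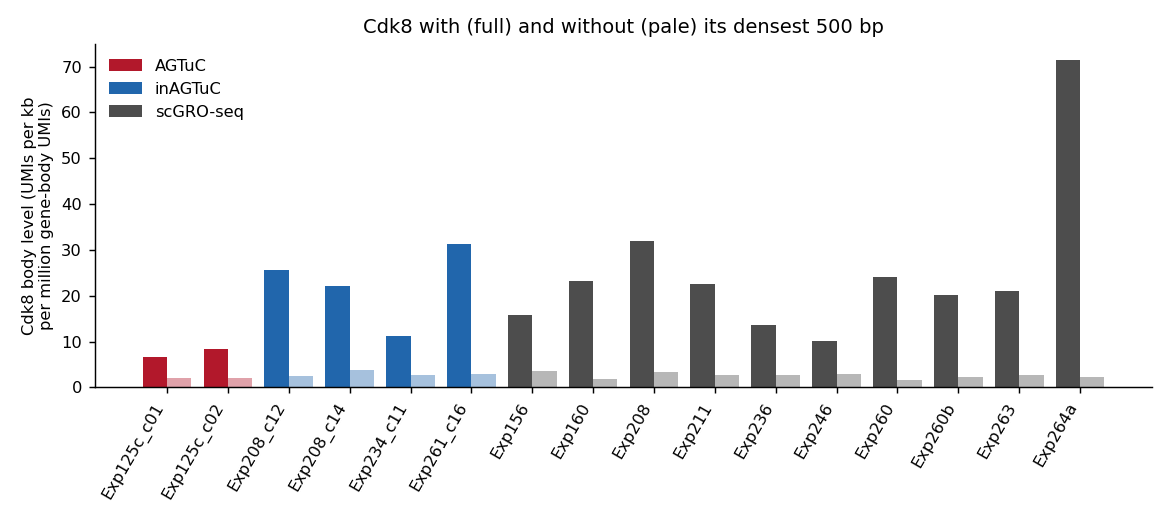
Cdk8 body level in sense UMIs per kb per 1000000 gene-body UMIs in each of 2 AGTuC libraries, 4 inAGTuC libraries and 10 scGRO-seq batches, with all reads (full bars) and without the densest 500 bp (pale bars). The full bars run from 6.69 to 71.4 (batch Exp264a), and the pale bars lie between 1.61 and 3.76.

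Single nuclei summed by batch and inAGTuC wells had no called difference in body level: 0 of 18 tested members and 0% of 7860 genes (limma voom; at an unadjusted p under 0.05, 0 members and 435 genes). The members' log2 differences ran from -0.49 (Med24) to 0.52 (Med6), with a median of 0.07 against 0.05 over all genes. Their standard errors ran from 0.19 (Cdk19) to 0.39 (Med20), so differences can go uncalled and 0 calls do not show equal levels. The other members had too few reads to be tested. Exp208 holds libraries of both assays, and there Med13l had 2.01 and 3.39 in inAGTuC and 3.62 in scGRO-seq, and Cdk8 25.6 and 22.1 against 31.9. With the experiment as a block 0 members were called again in body level (0 at an unadjusted p under 0.05) and in promoter ratio (2). In the same experiment the promoter share summed over members was 1.92% and 1.77% against 1.01%.

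The scGRO-seq batches differed in the level of 3 of 14 tested members (limma voom on libraries, 7336 genes), against 39.2% of all genes called. Med13l was called with adjusted p = 1.44e-11, from levels of 2.39 to 7.44 with Exp156 highest. Med14 was called with adjusted p = 0.00728, from 0.770 to 2.72, with Exp246 and Exp236 highest; without Exp236 its adjusted p was 0.220. Cdk8 was called with adjusted p = 9.59e-06, from 10.2 to 71.4 with Exp264a highest, and without its densest 500 bp it was not (adjusted p = 0.478). Of the other kinase module genes tested, Med12 (adjusted p = 0.919), Cdk19 (0.706), Med12l (0.462) and Med13 (0.379) missed the threshold.

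Members differed widely in the share of cells that showed them. This share counts a UMI anywhere on the span, so it also depends on gene length. A member had at least 1 sense UMI in 12.7% ± 2.38 of kept cells on average (mean over members, SD over 10 batches), in 10.5% with the densest 500 bp of each member left out, or in 4.65% with each cell thinned to 1000 UMIs. Over all cells the mean was 13.6% for members, 6.08% for all genes and 0.121% for olfactory receptor genes, read here as background, while the median was 6.33% for members and 1.87% for all genes. Every kept cell had on average 4.49 members with a UMI, with batch means of 3.36 to 5.75. Of 2512 cells 99.2% had at least 1 member, 21 had none, and the largest number was 20 of 33. Sense shares were above the antisense shares of the same gene for all named members below, in the same cells at the same depth.

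Cdk8 was seen in 84.5% ± 7.53 of cells, in 47.6% after thinning and in 26.1% ± 9.13 without its densest 500 bp; 1 cell held 51 Cdk8 UMIs. Its antisense reads were in 31.6% of cells. Med13l was seen in 64.9% ± 10.5 (27.5% thinned; antisense 27.4%), from 51.7% in Exp260 to 88.3% in Exp156. Cdk19 was seen in 25.9% ± 8.05 (antisense 9.76%), Med12l in 24.3% ± 8.33 (antisense 12.4%), Med13 in 19.4% ± 8.22 (antisense 7.38%), Med12 in 8.26% ± 2.71 (antisense 3.32%) and Ccnc in 7.52% ± 4.18 (antisense 1.78%). Outside the kinase module the most widely seen were Med27 (24.5% ± 6.24, antisense 12.9%), Med26 (23.7% ± 5.49, antisense 9.87%) and Med14 (19.8% ± 11.3, antisense 7.27%). Med27 has a span of 177981 bp and a body level of 1.04. Med8, with 6488 bp and a level of 3.43, was seen in 3.39% ± 1.61. The Med14 shares ran from 8.70% in Exp160 to 37.6% in Exp246 and 41.9% in Exp236. The least seen were Med11 (0.59% ± 0.86; antisense 0.108%) and Med31 (1.01% ± 1.03; antisense 0.304%), the first with the shortest span.

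Members were seen together in cells about as often as single reads permuted within a library give. Counting every pair of members with a UMI in the same cell gave 28283 pair-in-cell observations, against 29064.9 expected with cell identity permuted among the reads of each library (a mean worked out exactly, not drawn). The ratio was 0.973, with batches from 0.941 to 1.026 (mean 0.978, SD 0.028), and the same measure over pairs of all genes was 0.970 (batches 0.831 to 0.997). Of 528 pairs 210 were seen in more cells than expected, and 16 were never seen, where 0.60 to 4.45 cells were expected. Pairs within a module gave 0.972, pairs between modules 0.974, pairs within the kinase module 0.984, and pairs without Cdk8 0.967. Without Exp236, the batch with the most cells, the ratio was 0.985. Counting UMIs of a barcode within 50 bp once left 28283 observed but lowered the expected count to 27993.0, so the ratio turned above 1 (1.010). The permutation moves single reads, so several UMIs of a gene in 1 cell raise the expected count. Ratios a little under 1 therefore do not measure a departure from independence. In a 10 kb window after the first 500 bp the ratio was 0.932.

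The paralogue pairs had observed over expected ratios of 0.957 to 1.04. Cdk8 and Cdk19, which take the same place in the kinase module, were seen together in 619 cells against 646.7 expected, above expectation in 1 of 10 batches. Med13 and Med13l were together in 437 against 434.9 (above in 6 batches), and Med12 and Med12l in 86 against 83.0 (above in 5). Cyclin C was with Cdk8 in 217 cells against 214.3 (above in 6) and with Cdk19 in 92 against 100.5 (above in 5). The most frequent pair, Med13l and Cdk8, was in 1390 cells against 1362.8, above expectation in 7 of 10 batches. Counts of pairs with Cdk8 include its dense intron stretch, without which Cdk8 was seen in 26.1% of cells, and single pairs were not recounted without it. Members share the cells and the depth of a library, so these counts are descriptions with no test.

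**Figure D5:**
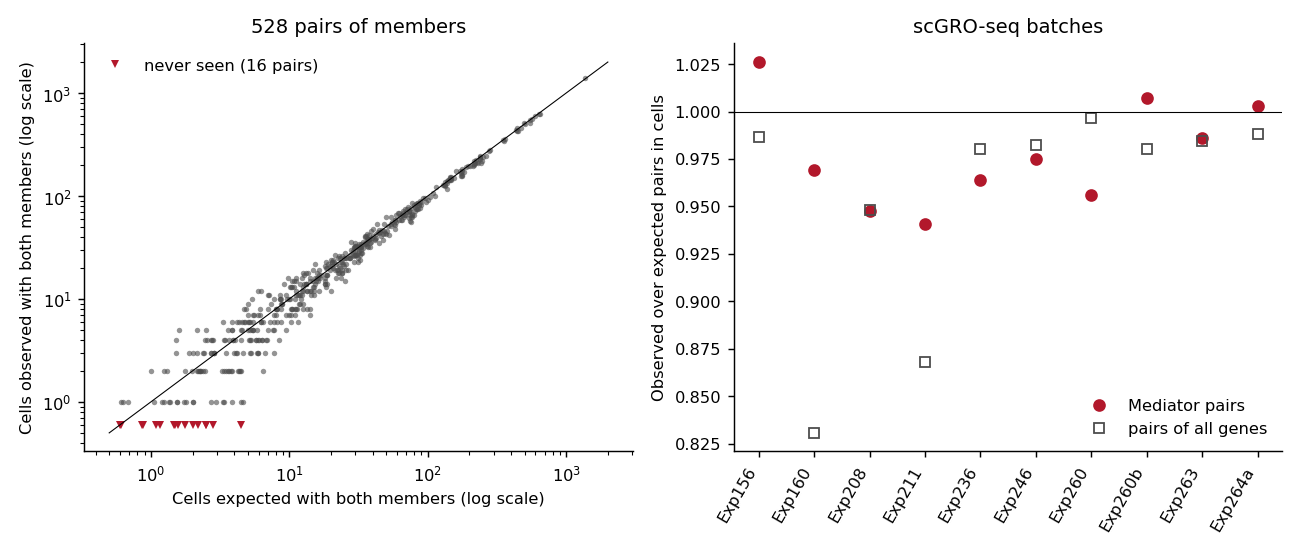
Left, cells observed with both members of a pair against cells expected with cell identity permuted within libraries, both on log scales, for 528 pairs, with the line of equality and the 16 pairs never seen marked apart. Right, the observed over expected ratio summed over pairs in each scGRO-seq batch for Mediator pairs (filled circles, 0.941 to 1.026) and pairs of all genes (open squares); most batches lie just under 1.

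Other genes of the initiation machinery gave the frame for these values. In the promoter-to-body comparison of AGTuC with inAGTuC (background 52.7%), 8 of 11 tested TFIID genes were called, among them Taf12 (4.70, SE 1.07, adjusted p = 0.00137) and Taf3 (4.30, SE 0.94), with 6 of 17 tested general factor genes, among them Ccnh, the cyclin of the TFIIH kinase (3.75), 3 of 8 polymerase II subunit genes and 3 of 10 partner genes, among them Cdk9, the elongation kinase (3.20, adjusted p = 0.00675). Every called gene of these lists was higher in AGTuC. In body level (background 30.1%), 2 of 5 tested polymerase II genes were called (Polr2a 1.23 and Polr2f 1.19), 1 of 16 general factor genes, 3 of 9 TFIID genes and 1 of 10 partner genes, all higher in AGTuC except Taf3 (-0.92). Between batches (background 39.2%) 2 of 4 tested TFIID genes, Taf4 and Taf1, and 1 of 11 general factor genes, Ercc2, a TFIIH helicase, were called, with 0 of 2 polymerase II genes and 0 of 9 partner genes.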

How the data were processed

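The read lists deposited by the authors gave each molecule's position, strand and cell barcode; their only numeric value was a mapping quality score, deposited by the authors and used as a filter in 1 alternative. Per the submitters' processing notes, cutadapt, Bowtie2 and UMI-tools were used on mm10, with no versions given. UMIs were counted here on RefSeq spans (GRCm38, whose chromosome lengths hold every read position), on the strand opposite to the list's strand entry. Cells needed at least 1000 UMIs and 750 genes, and libraries at least 24 such cells, which left 2512 of 5088 barcodes in 53 libraries; 23 scGRO-seq libraries of other batches were not used. The lists give no doublet information and no doublet caller was run. The scGRO-seq list of Exp261_c16 shared 99.7% of its reads with the inAGTuC list and was not counted again. The exceptions are the 345 bp stretch, marked blocks, mapping quality and strand counts of the Cdk8 intron. These used every deposited library, with that list and the 23 libraries of other batches.

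Counts were tested with limma 3.58.1 (voom, R 4.3.3) with median-of-ratios size factors, in place of the negative binomial test first planned, which was kept for deposited count tables. Genes needed 10 reads at the depth of the median sample in as many samples as the smallest group has, and 15 in all. p-values were adjusted over all genes tested at a threshold of 0.05, and the tests were tried on simulated data. There the promoter ratio of AGTuC against inAGTuC gave more false calls than this threshold allows unless at least 15 promoter reads were required. That setting is given beside its result. The simulated inAGTuC libraries had promoter reads at the AGTuC rate, above their real rate. The simulation therefore cannot show the rate of false calls in these data under either setting. Promoter ratios were fitted as region by assay with the library as a block. Other steps used Python 3.11.15. The members and gene lists were chosen with earlier results of these data known. Values are given in full for called members (up to 10 per test, by fold), the 3 highest and 3 lowest in scGRO-seq, the paralogue pairs with Ccnc, and the members on chromosome X; the 5 promoters with the most UMIs, the second Med10 start and the Cdk8 intron were chosen for printing after their values were seen. Alternatives changed 1 choice at a time.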

Additional observations from a re-analysis of the deposited data

Results flagged for a closer look

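In 14 of 102 groups of member values 1 library or batch stood far from the others; chance gives about 1 in 20 for normally distributed values, and the rate for low counts like many of these was not measured. The level and the cell share of 1 gene are counted as separate groups, although they share reads. In body level (sense UMIs per kb per 1000000 gene-body UMIs) these were the inAGTuC library Exp261_c16 for Med19 (1.85, others 0.220 to 0.410) and, among scGRO-seq batches, Exp160 for Cdk19 (0.823, others 1.33 to 1.75) and Med18 (8.73, others 1.09 to 5.05), Exp211 for Med31 (6.35, others 0 to 3.19), Exp246 for Med30 (2.42, others 0.384 to 1.34), Exp264a for Med22 (6.06, others 0.622 to 3.23) and Cdk8 (71.4, others 10.2 to 31.9), and Exp156 for Med13l (7.44, others 2.39 to 4.92), Med29 (4.44, others 0.707 to 2.54) and Med26 (5.42, others 2.43 to 3.73). In the share of kept cells with a UMI they were Exp211 for Med11 (2.70%, others 0 to 1.23%) and Med31 (3.60%, others 0 to 1.60%), Exp236 for Med6 (12.9%, others 2.99 to 8.11%) and Exp246 for Med28 (9.68%, others 0.794 to 5.17%).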

How the results depend on the processing

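Counts of called members moved with the libraries used: the count of members with a different promoter ratio in AGTuC and inAGTuC (12) ran from 0 to 18 when 1 library was left out, and that of members with a different body level (6) from 0 to 7. Without both inAGTuC libraries of Exp208, an alternative chosen after seeing the data like the scaling, densest-stretch and promoter-read settings, these counts were 4 and 2. With each region scaled to its own size factor 2 members had a different promoter ratio, and 2324 genes against 6400. Without either AGTuC library 550 and 908 genes were called in that comparison, and 729 and 188 against 3451 in body level, where no filter on low counts gave 9145. Members that differed between batches (3) were 5 at a mapping quality of at least 10, 6 with the minimum of 1000 UMIs alone and 2 to 4 with 1 batch left out. These counts were not compared with the share of all genes called in the same settings, so they show no change particular to the members. The Med10 difference reversed to 4.17 with any curated start. The co-occurrence ratio (0.973) was 0.932 in the 10 kb window, 1.010 with UMIs within 50 bp counted once and 0.968 to 0.985 with 1 batch left out. The mean share of cells (12.7%) was 4.65% after thinning and 10.3% with the UMI minimum alone. The difference in promoter share (11.3 points) was 12.6 points without the densest 500 bp. The comparisons of scGRO-seq with inAGTuC called 0 members under every alternative run. For single called members, 181 alternative values kept direction and call, 43 lost the call and 1 reversed; with 1 library left out 83 kept it and 54 lost it. DESeq2 was not run; the counts made here were tested with limma alone. Among the batches used, Exp208 alone holds both inAGTuC and scGRO-seq (the scGRO-seq libraries of Exp234 and Exp261 were not used), and a block on the experiment, chosen after seeing the data, called 0 members and 0 genes (at an unadjusted p under 0.05, 2 members and 197 genes in promoter ratio, 0 and 256 in body level). The cause of these changes was not tested.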
